A study of Homo sapiens with 6 samples.

Results

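The genes described here are 36 genes of the extracellular matrix other than collagens: laminins, further basement membrane components, elastic fibre proteins, matricellular and adhesive glycoproteins, and proteoglycans. They were given as a list of symbols and found by Ensembl identifier among the 58243 identifiers of the deposited table, and all 36 had a row. They comprise 9 laminin chains, 4 other basement membrane genes, 11 elastic fibre genes, 8 matricellular or adhesive genes and 4 proteoglycans. RNA was sequenced from LX2, an established human cell line derived from activated hepatic stellate cells, which lay down scar matrix in the liver. Every library came from transfected cells taken at 48 h, and both groups share that handling. The 3 control libraries received siNC and carry the genotype label WT, and the 3 knockdown libraries received siAURKA, against the mitotic kinase Aurora A. The comparison asks how lowering AURKA alters expression in these cells. It rests on 1 cell line on plastic, and the labels do not say whether the replicates came from separate cultures, so p-values speak of the variation among these 6 libraries alone, and that variation may be technical.

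A laminin is a trimer of an alpha, a beta and a gamma chain, and laminin networks joined by nidogens and perlecan form the basement membrane on which epithelium, endothelium and muscle rest. Elastic fibres are built on microfibrils of fibrillin, onto which fibulins and EMILIN proteins guide elastin. Matricellular proteins such as SPARC, tenascin C and thrombospondins adjust how cells attach and signal, while fibronectin is the adhesive scaffold on which much of the fibrillar matrix is assembled. In injured liver, activated stellate cells are a main source of fibronectin and of small proteoglycans, and the space of Disse gains a laminin-rich matrix.

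Library totals ran from 23366242 to 53357402 units of the deposited estimated counts, and 18775 genes had enough signal to be tested. AURKA itself was at 135.8, 128 and 95.02 CPM (TMM-normalised counts scaled to the library total) in siNC replicates 1, 2 and 3 and at 49.8, 47.0 and 51.1 CPM in siAURKA replicates 1, 2 and 3, so the groups did not overlap. The edgeR test used for the members below did not call AURKA (log2 fold change -1.28, SE 0.28, adjusted p 0.9999), whereas DESeq2 did (adjusted p 0.0314, and 1.39e-06 with the replicate block). Of 12 stellate cell and fibroblast markers 11 were tested, with a summed level of 6411 to 11462 CPM in siNC and 6193 to 10924 CPM in siAURKA. Vimentin (VIM) and COL1A1 made up most of that sum, and LRAT, the retinol-esterifying enzyme of quiescent stellate cells, was at 0 in 5 of 6 libraries. Smooth muscle actin (ACTA2) was at 13.4 ± 3.37 CPM with siNC and at 19.3 ± 0.997 CPM with siAURKA (SD, n = 3), and COL1A2 at 4.35 ± 1.29 and 9.11 ± 2.56 CPM. Both were higher in 3 of 3 pairs without overlap of the groups, as were 625 of 18775 genes without regard to pairs, and edgeR called neither. They are the 2 of the list with the smallest p in edgeR with the replicate block. Of the 11 markers tested, 4 had a fitted log2 fold change above 0 and 7 below, with a median of -0.10. Hepatocyte markers summed to 16.2 to 46.3 CPM in siNC and 18.9 to 35.3 CPM in siAURKA, with ALB, APOB, TTR and FGB at 0 throughout. Endothelial markers summed to 11.1 to 16.2 CPM in siNC and 12.8 to 18.2 CPM in siAURKA, with CLEC4G at 0 throughout. Cholangiocyte markers summed to 48.8 to 97.9 CPM in siNC and 41.6 to 62.7 CPM in siAURKA, and macrophage and leukocyte markers to 49.0 to 125 CPM and 58.2 to 106 CPM. SERPINA1 made up most of the hepatocyte sum and SOX9 most of the cholangiocyte sum (means in siNC 30.1 and 58.7 CPM). CD68 and CD14 made up most of the macrophage and leukocyte sum (60.2 and 20.2 CPM). Libraries with the same replicate number resembled each other, so each gene is also described within the 3 same-numbered pairs. Markers of lung epithelium were also present and are described with the low-level genes.

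No member passed the test between the groups. By edgeR's quasi-likelihood test with Benjamini-Hochberg adjustment, 0 of the 33 members tested had an adjusted p below 0.05, beside 0 of 18775 genes (0%), and 0 members against 237 genes (1.26%) had an unadjusted p below 0.05. DESeq2 called 17 genes (0.0905%), 0 of them members, and limma-voom called 0 genes, with 269 (1.43%) at an unadjusted p below 0.05. With the replicate number as a block, which treats same-numbered libraries as pairs, DESeq2 called 246 genes (1.31%) and a single member, LAMB3 (3.03% of the 33), as lower. edgeR with the replicate block called 0 genes (0%). At an unadjusted p below 0.05 it had 1592 genes (8.48%) and 6 members (18.2%): LAMA1, LAMA5, LAMB2, LAMB3 and THBS1 with estimates below 0 (15.2%, beside 4.55% of genes) and LAMA3 with one above (3.03%, beside 3.93%). In bulk RNA, fewer cells of a kind and less RNA per cell cannot be told apart. MFAP2, MFAP5 and POSTN were too low to be tested, and DESeq2 with the replicate block gave no adjusted p to LAMA2, ELN, FBLN1, FBLN5, MGP and LUM.

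The fitted values of the members were spread to both sides. The log2 fold change of siAURKA over siNC was above 0 for 15 members and below 0 for 18, beside 48.5% and 51.5% of all genes tested. Its median was -0.13 for the 33 members and -0.012 for all genes tested. By subgroup the median was -0.22 for the 9 laminins, -0.33 for the 4 other basement membrane genes, 0.07 for 9 elastic fibre genes, -0.13 for 7 matricellular and adhesive genes and 0.09 for the 4 proteoglycans. The members' median pair ratio, on the log2 (CPM + 0.5) scale, was -0.10, 0.17 and -0.21 in pairs 1, 2 and 3, so the 3 pairs did not share a direction. Direction was the same in all 3 pairs for 11 members (33.3%), beside 35.6% of all genes. The 5 members higher throughout (15.2%, beside 17.9% of genes) were EMILIN1, LAMA2, LAMA3, LAMA4 and THBS2. The 6 lower throughout (18.2%, beside 17.6%) were EFEMP2, LAMA1, LAMA5, LAMB2, LAMB3 and THBS1. Of those 11, 7 were laminin chains, 3 of them higher and 4 lower, out of 9 laminins among the 33 members tested.

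**Figure D1:**
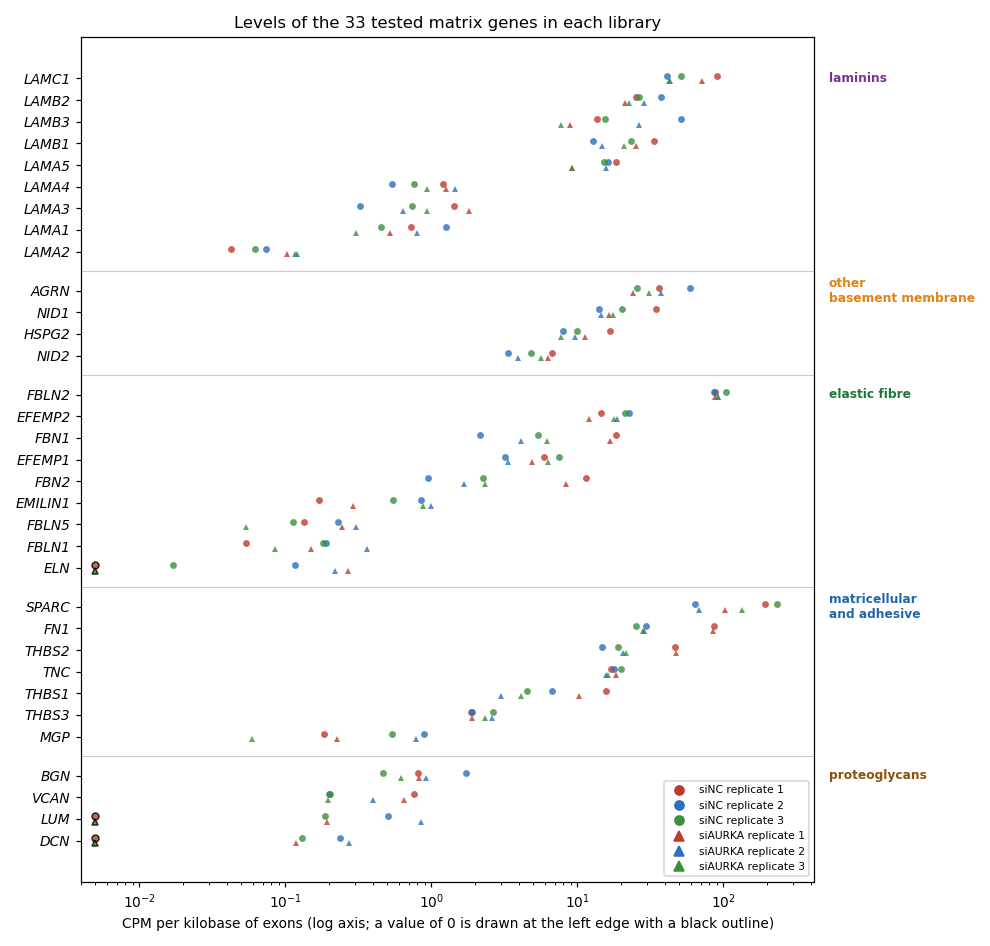
Level of each of the 33 tested genes in CPM per kilobase of exon (horizontal log axis), 1 row per gene and grouped by role, with circles for siNC and triangles for siAURKA and a colour for each replicate number. SPARC, FBLN2 and LAMC1 lie at the right, the proteoglycans and elastin at the left, and in FBN1, FBN2 and FN1 both replicate 1 points stand to the right of the other 4.

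Levels between genes were compared per kilobase of exon, among these 36 genes alone and as RNA, so they do not give the make-up of the matrix. Exonic length counts every base in any annotated exon of a gene, and can exceed the length of the transcript expressed. Ranks between genes are therefore rough. SPARC, a collagen- and calcium-binding glycoprotein, was highest at 163 ± 87.5 CPM per kilobase in siNC (SD, n = 3), at the percentile 98.9 of all tested genes. FBLN2, fibulin-2, followed at 92.5 ± 9.69, LAMC1 at 61.1 ± 26.4, FN1 at 47.0 ± 33.9 and AGRN at 40.5 ± 17.0 CPM per kilobase. The first place is not secure, since in siNC replicate 2 SPARC was below FBLN2, and from LAMC1 down each of these genes lay within 1 SD of the next. The 4 proteoglycans outside the basement membrane (BGN, DCN, LUM and VCAN) were low, BGN leading at 1.0 ± 0.653 CPM per kilobase. Together the 36 genes took 0.346% to 0.675% of a library's units. They summed to 6538, 3884 and 4425 CPM in siNC and to 5241, 3577 and 3678 CPM in siAURKA, lower in 3 of 3 pairs with overlapping groups. The laminins alone summed to 1582, 1215 and 1119 CPM in siNC and to 1176, 1073 and 881 CPM in siAURKA, again lower in every pair and overlapping. No test was run on these sums, in which the most abundant genes weigh most.

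Among the laminin chains the highest level per kilobase was that of LAMC1, the gamma-1 chain common to most laminins. LAMC1 was at 765, 345 and 430.3 CPM in siNC replicates 1, 2 and 3 and at 601, 365 and 359 CPM in siAURKA. Both replicate 1 libraries were high and the groups overlapped; the log2 fold change was -0.22 (SE 0.39; edgeR adjusted p 0.9999, as for every member). LAMB2, the beta-2 chain known from the glomerulus and the neuromuscular junction, was at 172, 258 and 181 CPM in siNC and at 146, 196 and 155 CPM in siAURKA. It was lower in 3 of 3 pairs by log2 ratios of -0.23, -0.40 and -0.22, yet siAURKA replicate 2 stood above 2 of the siNC libraries. The edgeR log2 fold change was -0.30 (SE 0.29), and -0.09 without siNC replicate 2. LAMB1, the more widespread beta chain, was at 188 ± 82.9 CPM with siNC and at 164 ± 42.0 CPM with siAURKA, and lower in 2 of 3 pairs.

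LAMB3 was the single member called by any fit to all 6 libraries and was singled out after its values were seen. The gene lies on the minus strand of chromosome 1, from 209614870 to 209652466 (GRCh38), and encodes the beta-3 chain of laminin-332, the laminin that anchors skin epithelium through hemidesmosomes. The control libraries 1, 2 and 3 held 64.4, 242 and 72.8 CPM, and the siAURKA libraries 41.6, 125 and 36.2 CPM. Every siAURKA library was below its same-numbered control, by log2 ratios of -0.63, -0.95 and -1.0, but both replicate 2 libraries were far above the rest, so the groups overlapped. edgeR without pairing gave a log2 fold change of -0.90 (SE 0.68), and an exact two-sided permutation of the libraries gave p = 0.4 for log2 CPM; with 3 libraries a side it cannot go below 0.1. With the replicate block the log2 fold change was -0.86 (SE 0.13; edgeR adjusted p 0.536, 0.00125 before adjustment), and DESeq2 with the replicate block gave -0.88 (SE 0.18) with an adjusted p of 0.000527. Without siNC replicate 2 the edgeR value was -0.02, and without siAURKA replicate 2 it was -1.70. The DESeq2 call with the replicate block held without pair 1 (adjusted p 0.0184) and without pair 2 (0.0112) and was lost without pair 3 (0.578).

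The promoter windows of LAMB3 are printed because it was the single called member, and that of FN1 because it had the highest CPM of any member in both replicate 1 libraries. Each runs from 250 bases before to 50 bases after a RefSeq transcription start (GRCh38.p14, minus strand, 5′ to 3′), with the TATA box (TATAAA), the CCAAT box, the GC box (GGGCGG) and the AP-1 letters (TGAGTCA) in capitals on either strand. The LAMB3 windows are those of the most upstream of 3 annotated starts, chr1:209652376-209652675, and of the most downstream, chr1:209651325-209651624. The FN1 window is chr2:215436019-215436318.
LAMB3 upstream start: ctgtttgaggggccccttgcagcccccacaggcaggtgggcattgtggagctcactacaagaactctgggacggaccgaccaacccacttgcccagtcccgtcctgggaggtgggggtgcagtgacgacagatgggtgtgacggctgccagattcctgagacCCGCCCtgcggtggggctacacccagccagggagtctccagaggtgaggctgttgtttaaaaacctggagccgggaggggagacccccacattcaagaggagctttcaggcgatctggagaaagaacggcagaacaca
LAMB3 downstream start: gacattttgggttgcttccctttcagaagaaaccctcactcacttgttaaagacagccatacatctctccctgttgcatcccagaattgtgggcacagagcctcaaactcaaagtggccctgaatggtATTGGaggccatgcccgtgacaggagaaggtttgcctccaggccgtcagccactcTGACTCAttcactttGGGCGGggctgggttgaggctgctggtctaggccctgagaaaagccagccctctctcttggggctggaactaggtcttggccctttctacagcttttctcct
FN1: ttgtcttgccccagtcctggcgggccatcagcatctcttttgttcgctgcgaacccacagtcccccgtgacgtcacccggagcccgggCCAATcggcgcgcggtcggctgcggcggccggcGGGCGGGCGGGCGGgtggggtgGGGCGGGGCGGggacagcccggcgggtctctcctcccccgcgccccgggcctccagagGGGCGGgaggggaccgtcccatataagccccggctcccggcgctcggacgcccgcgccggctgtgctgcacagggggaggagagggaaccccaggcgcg
RefSeq gave a promoter window for 27 of the 36 genes, with 33 starts. The GC box letters GGGCGG occurred in 25 of these 33 windows (21 of the 27 genes), beside 45.0% of all 35116 windows. CCAAT occurred in 9 of the 33 (8 genes), beside 34.6%. TATAAA occurred in 3 of the 33 (in FBLN5, POSTN and THBS2), beside 11.5% of windows. The AP-1 letters TGAGTCA occurred in 4 of the 33 (in LAMA3, LAMB3, MFAP2 and POSTN), beside 4.95% of windows. In LAMB3 they lie in the downstream window only. Both strands were searched and overlapping matches were counted. These are letter matches and not measurements of binding.

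The alpha chains, which set what a laminin binds, differed in direction. LAMA5, the alpha-5 chain of most adult basement membranes (chromosome 20, 62307955 to 62367312, minus strand), was at 263, 232 and 218 CPM in siNC and at 132, 226 and 131 CPM in siAURKA. Replicates 1 and 3 of siAURKA were well below all controls, and replicate 2 lay among them, with pair ratios of -0.99, -0.04 and -0.73. The edgeR log2 fold change was -0.54 (SE 0.31), and -0.59 (SE 0.21; adjusted p 0.575, 0.036 before adjustment) with the replicate block. With all 3 pairs, DESeq2 with the replicate block passed neither LAMA5 nor SPARC (adjusted p 0.240 and 0.347). Without pair 2, where their log2 ratios were -0.04 and 0.09, that fit gave LAMA5 0.000207 and SPARC 2.25e-05. Without pair 1 it gave 0.870 and 0.915, and without pair 3 it gave 0.9999 for both. LAMA4, the alpha-4 chain of endothelial and mesenchymal laminins, was at 14.0, 6.25 and 8.77 CPM in siNC and at 14.6, 17.0 and 10.9 CPM in siAURKA. It was higher in 3 of 3 pairs, by log2 ratios of 0.06, 1.37 and 0.30, most of it in pair 2, and the groups overlapped. The log2 fold change was 0.55 (SE 0.39), or 0.92 without siNC replicate 1, 0.32 without siNC replicate 2 and 0.17 without pair 2.

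LAMA2, the alpha-2 chain of muscle and nerve laminin (chromosome 6, 128883141 to 129516569, plus strand), was the single member whose groups did not overlap (3.03% of the 33, beside 5.85% of all genes). It was very low, at 0.440, 0.764 and 0.644 CPM in siNC and at 1.06, 1.24 and 1.20 CPM in siAURKA. The log2 fold change was 0.93 (SE 0.51, edgeR p 0.108 before adjustment). The exact permutation p was 0.1, the smallest possible. Groups of 3 that do not overlap always give that p, so it adds nothing to the lack of overlap. A level of 3 fragments, if 1 fragment is worth 4 units, is 0.225 to 0.514 CPM in these libraries, so the siNC values stand just above it. LAMA3, the alpha chain of laminin-332, was at 12.2 ± 8.17 CPM with siNC and at 16.5 ± 8.91 CPM with siAURKA and higher in 3 of 3 pairs, by 0.33, 0.90 and 0.34. LAMA1, the embryonic alpha chain, was at 12.9 ± 6.61 CPM with siNC and at 8.62 ± 3.94 CPM with siAURKA and lower in 3 of 3 pairs, by -0.45, -0.65 and -0.52. Of LAMA1's exonic bases 11.1% also lie in antisense genes, and without siAURKA replicate 1 the edgeR value of LAMA3 was -0.09. Without siNC replicate 2 LAMA1 was at -0.11.

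**Figure D2:**
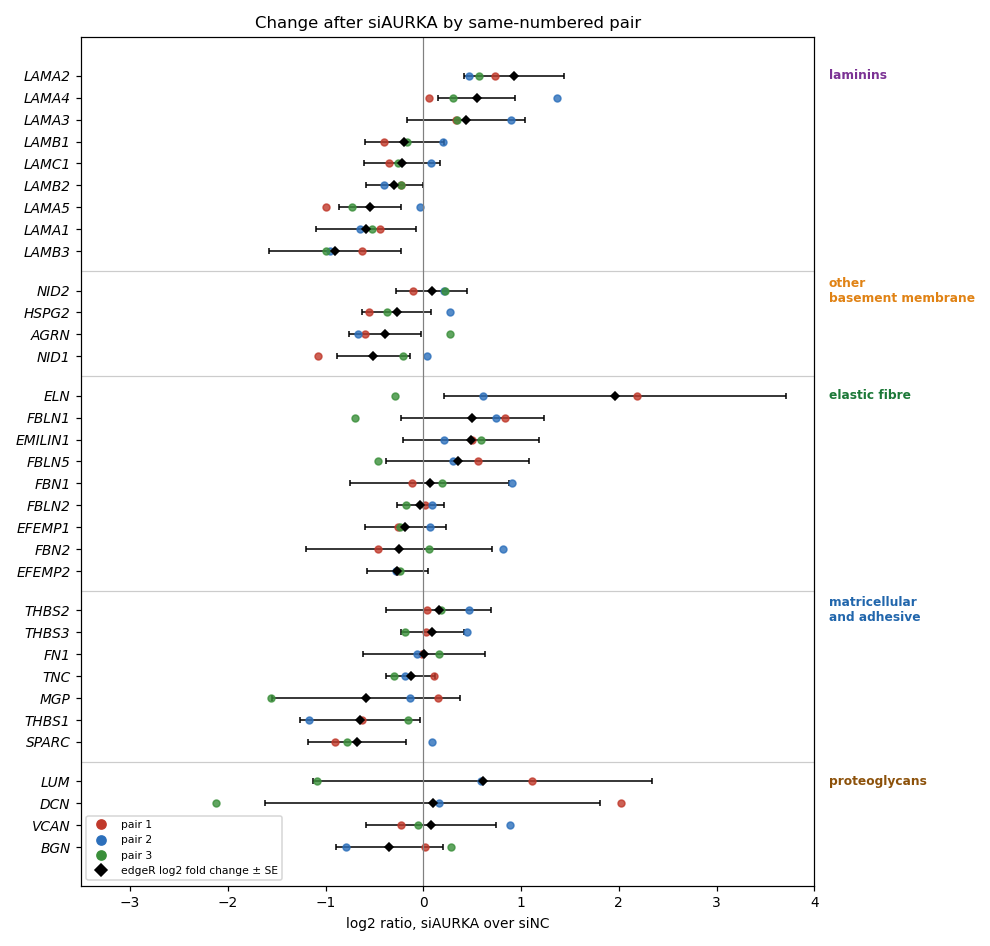
Log2 ratio of siAURKA over siNC for each of the 33 tested genes (horizontal axis), with coloured points for pairs 1, 2 and 3 on the log2 (CPM + 0.5) scale and black diamonds for the edgeR log2 fold change with bars of 1 SE. LAMB3 has its 3 points close together at -0.63 to -1.0, whereas those of DCN run from -2.12 to 2.02.

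The other basement membrane genes had fitted values below 0 in 3 of 4 cases, and none kept 1 direction through the pairs. AGRN, agrin, the heparan sulphate proteoglycan that clusters acetylcholine receptors at the neuromuscular junction, was at 393, 636 and 278 CPM in siNC and at 259.7, 401 and 335 CPM in siAURKA. It was lower in pairs 1 and 2 and higher in pair 3, and its log2 fold change of -0.39 (SE 0.37) was -0.01 without siNC replicate 2. NID1, nidogen-1, which links laminin to collagen IV, was at 204, 82.6 and 119 CPM in siNC and at 96.4, 85.0 and 103 CPM in siAURKA. The high value of siNC replicate 1 carried the difference, since the log2 fold change was -0.51 (SE 0.37) with it and -0.08 without it. HSPG2, perlecan, was at 209 ± 81.8 CPM with siNC and at 173 ± 32.4 CPM with siAURKA. NID2, nidogen-2, was at 31.9 ± 10.9 CPM with siNC and at 33.8 ± 7.90 CPM with siAURKA. Shared exonic bases with genes on the opposite strand amount to 30.0% for NID2 (RTRAF) and 11.7% for HSPG2 (LDLRAD2), and the use of strand in counting is not given in the sources used here, so these levels are uncertain.

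Among elastic fibre genes the 2 most abundant per kilobase, both fibulins, had log2 fold changes less than 1 SE from 0 without pairing. FBLN2 was at 419.8, 417 and 499 CPM in siNC and at 423, 444 and 441 CPM in siAURKA. The siAURKA libraries lay inside the range of the controls, the log2 fold change was -0.03 (SE 0.24), and with the replicate block the interval of the estimate ± 1.96 SE ran from -0.24 to 0.19. EFEMP2, fibulin-4, which is needed for elastin crosslinking, was at 79.0, 123 and 114 CPM in siNC and at 65.4, 101 and 96.2 CPM in siAURKA. It was lower in every pair by nearly the same amount, -0.27, -0.28 and -0.24, while the groups overlapped because both replicate 1 libraries were low. Its log2 fold change was -0.26 (SE 0.31), or -0.43 without siNC replicate 1 and -0.10 without siAURKA replicate 1, and -0.26 (SE 0.11; adjusted p 0.602) with the replicate block. EFEMP1, fibulin-3, was at 21.9 ± 8.49 CPM with siNC and at 19.3 ± 5.83 CPM with siAURKA.

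FBN1 and FBN2, the fibrillins of the microfibril core, varied far more between replicate numbers than between groups. FBN1 was at 294, 34.8 and 86.5 CPM in siNC and at 271, 65.7 and 99.1 CPM in siAURKA, with a log2 fold change of 0.07 (SE 0.81). FBN2 was at 151, 12.5 and 29.7 CPM in siNC and at 109.6, 22.3 and 31.0 CPM in siAURKA, with a log2 fold change of -0.25 (SE 0.95), and 0.13 (SE 0.27) with the replicate block. In both genes the replicate 1 libraries were the highest and the replicate 2 libraries the lowest of either group.

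Of the matricellular genes, SPARC (chromosome 5, 151661096 to 151687165, minus strand) was at 925, 311 and 1123 CPM in siNC and at 493, 331 and 653 CPM in siAURKA. Replicates 1 and 3 were lower after siAURKA and replicate 2 was not, with pair ratios of -0.91, 0.09 and -0.78. The log2 fold change was -0.68 (SE 0.50), and -0.54 (SE 0.22; adjusted p 0.601) with the replicate block. It was -1.05 without siNC replicate 2 and -0.32 without siNC replicate 3. LAMA5, described above, likewise had its lower values in pairs 1 and 3. FN1, fibronectin (chromosome 2, 215360440 to 215436172, minus strand), was at 1489, 515 and 436 CPM in siNC and at 1475, 492 and 486 CPM in siAURKA. Each siAURKA library lay close to its own control, with pair ratios of -0.01, -0.06 and 0.16. With the replicate block the log2 fold change was 0.03 (SE 0.10) and its interval, ± 1.96 SE, ran from -0.18 to 0.23.

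THBS1, thrombospondin-1, an activator of latent TGF-beta, was named after its values were seen. It was at 145, 61.9 and 41.6 CPM in siNC and at 93.8, 27.3 and 37.4 CPM in siAURKA. It was lower in 3 of 3 pairs, by -0.63, -1.17 and -0.15, with overlapping groups. The log2 fold change was -0.65 (SE 0.61), or 0.04 without siNC replicate 1, and -0.65 (SE 0.22; adjusted p 0.570, 0.0313 before adjustment) with the replicate block. Of its exonic bases 7.58% also lie in other genes. THBS2, its close relative, was at 172 ± 111 CPM with siNC and at 192 ± 99.3 CPM with siAURKA and higher in 3 of 3 pairs, by 0.04, 0.47 and 0.18. TNC, tenascin C, a glycoprotein of wounds and tumour stroma, was at 177 ± 14.6 CPM with siNC and at 162 ± 14.1 CPM with siAURKA with overlapping groups. THBS3 was at 9.88 ± 2.07 CPM with siNC and at 10.6 ± 1.67 CPM with siAURKA, with 25.4% of its exonic bases in other genes.

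**Figure D3:**
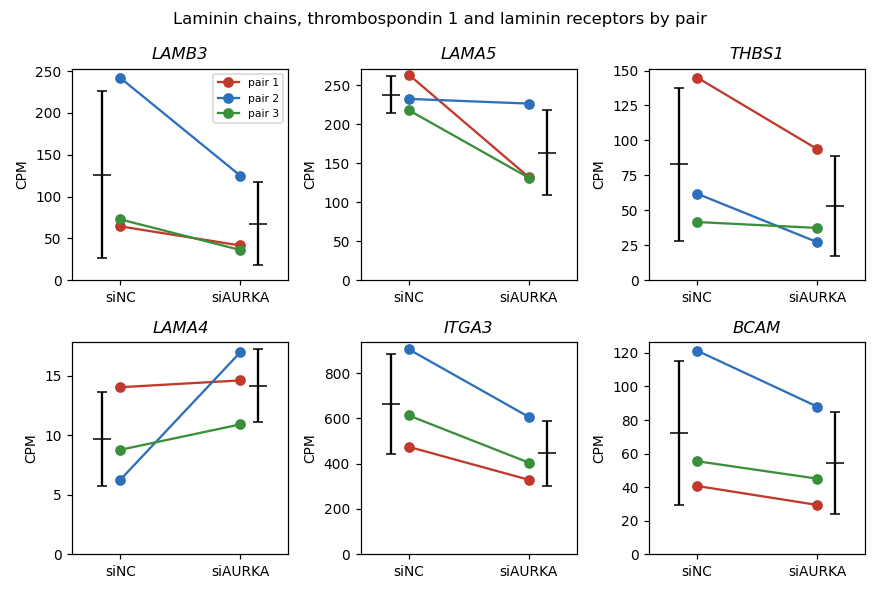
Level in CPM (vertical axes from 0) of 4 members and the laminin receptors ITGA3 and BCAM, with a line joining the 2 libraries of each pair and black bars of mean ± SD beside each group. LAMB3, THBS1, ITGA3 and BCAM go down along all 3 lines, LAMA5 along 2 of them with pair 2 nearly flat, and LAMA4 goes up mainly in pair 2.

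The 4 proteoglycans outside the basement membrane were scarce, and their fitted values changed sign when libraries were left out. VCAN, versican, a large hyaluronan-binding proteoglycan, was at 11.4, 2.96 and 3.02 CPM in siNC and at 9.60, 5.88 and 2.89 CPM in siAURKA. Its level was similar in pairs 1 and 3 and higher after siAURKA in pair 2, with a log2 fold change of 0.08 (SE 0.67). BGN, biglycan, a small leucine-rich proteoglycan that binds collagen and Toll-like receptors, was at 1.99, 4.25 and 1.15 CPM in siNC and at 2.02, 2.24 and 1.51 CPM in siAURKA. The high siNC replicate 2 set its log2 fold change of -0.35 (SE 0.55), which was 0.29 without that library. DCN, decorin, the small proteoglycan that decorates collagen fibrils, was at 0, 3.05 and 1.68 CPM in siNC and at 1.53, 3.49 and 0 CPM in siAURKA. LUM, lumican, a related corneal and fibroblast proteoglycan, was at 0, 1.53 and 0.560 CPM in siNC and at 0.577, 2.55 and 0 CPM in siAURKA. Both were thus at 0 in siNC replicate 1 and in siAURKA replicate 3 and above 0 in the other 4 libraries, whatever the treatment.

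That pattern was shared by other members at low level. Of the 36 genes, 12 had a mean below 3 CPM: LAMA2, ELN, FBLN1, FBLN5, EMILIN1, MFAP2, MFAP5, POSTN, MGP, LUM, DCN and BGN. In siNC replicate 1 and in siAURKA replicate 3 the same 6 of them, ELN, MFAP2, MFAP5, POSTN, LUM and DCN, were at 0, although these are not the shallowest libraries. Of 5685 tested genes with a mean below 3 CPM, 2.85% and 2.66% were at 0 in those libraries. That share leaves out untested genes, such as MFAP2, MFAP5 and POSTN. MFAP5 was at 0 in all 6 libraries. ELN, elastin, was at 0, 0.764 and 0.112 CPM in siNC and at 1.77, 1.43 and 0 CPM in siAURKA. POSTN, periostin, a marker of activated fibroblasts, was at 0, 0 and 0.140 CPM in siNC and at 1.03, 0.871 and 0 CPM in siAURKA. A 0 here is taken as less than the 0.287 and 0.281 CPM that 3 fragments give in those libraries, if 1 fragment is worth 4 units. Being at 0 in exactly those libraries and above 0 in the other 4 was seen for 20 of 18775 genes (0.107%), 3 of them members, DCN, ELN and LUM. The share is over genes of every level, most of them above 3 CPM.

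The other genes with that pattern were looked at next, and the following marker lists were chosen after they were seen. Among them were the haemoglobin genes HBA1, HBA2 and HBB and the immunoglobulin genes IGHG1, IGHA1 and IGKC, none of them a product of stellate cells. The 3 haemoglobin genes summed to 0, 1.15 and 0.868 CPM in siNC and to 0.559, 1.49 and 0 CPM in siAURKA. The 6 immunoglobulin genes summed to 0, 2.62 and 2.32 CPM in siNC and to 1.30, 1.81 and 0 CPM in siAURKA. Both lists were at 0 in siNC replicate 1 and siAURKA replicate 3. For the haemoglobin genes and for IGHG1, IGHA1 and IGKC this was fixed in advance, since they were picked by that pattern. IGHM, IGLC2 and JCHAIN were at 0 there too, but each was also at 0 in siAURKA replicate 2.

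Lung epithelial markers were likewise lowest in those 2 libraries. The 8 genes listed, surfactant proteins SFTPA1, SFTPA2, SFTPB, SFTPC and SFTPD with SCGB1A1, AGER and NAPSA, summed to 6.19, 62.6 and 28.6 CPM in siNC and to 54.3, 160.2 and 11.0 CPM in siAURKA. Not every listed gene varied as the sum did: AGER was at 6.19 CPM in siAURKA replicate 3 and at 3.57 CPM in siAURKA replicate 1, and SCGB1A1 was at 3.66 CPM in siAURKA replicate 1 and at 0.436 CPM in siAURKA replicate 2. SFTPC, a protein of alveolar type II cells, reached 35.7 CPM in siNC replicate 2 and 78.0 CPM in siAURKA replicate 2, from 749 and 2506 units. The summed level of the 6 matrix genes was 0, 5.35 and 2.83 CPM in siNC and 5.02, 8.96 and 0 CPM in siAURKA. Its 4 libraries above 0 stood in the same order as the lung markers. The haemoglobin and immunoglobulin sums did not share that order. Of those 4 libraries, siAURKA replicate 1 was lowest in both, at 0.559 and 1.30 CPM. The part of such RNA in the levels of the low members was not tested. FBLN1 (1.03 ± 0.553 CPM in siNC, 1.46 ± 1.06 in siAURKA), FBLN5 (0.793 ± 0.311 and 1.01 ± 0.657) and MGP, the calcification inhibitor matrix Gla protein (1.42 ± 0.926 and 0.945 ± 1.01), were each highest in a replicate 2 library and lowest in siNC replicate 1 or siAURKA replicate 3. EMILIN1, a microfibril glycoprotein, was at 2.06 ± 1.34 CPM with siNC and at 2.87 ± 1.5 CPM with siAURKA and followed another order, with both replicate 1 libraries lowest. LAMA2 did not follow the lung markers either, being at 1.20 CPM in siAURKA replicate 3, where they summed to 11.0 CPM.

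Many members differed between replicate numbers, a comparison added after the data were seen. With the group accounted for, edgeR's test of the replicate numbers had an adjusted p below 0.05 for 15 members (45.5%), beside 5023 genes (26.8%). FBN1, FBN2, FN1, LAMA3, LAMC1, THBS1, THBS2 and VCAN were among them. Both replicate 1 libraries were above the other 4 for 11 members (33.3%, beside 26.9% of genes). In 7 of these (21.2%, beside 14.8%) the mean was at least 2-fold higher: 5.46-fold for FBN2, 3.95-fold for FBN1, 3.07-fold for FN1, 2.84-fold for THBS1 and VCAN, 2.49-fold for THBS2 and 2.46-fold for LAMA3. In LAMB3 the replicate 1 libraries were at 0.446 of the mean of the others, because both replicate 2 libraries were high (242 CPM in siNC and 125 CPM in siAURKA). Its replicate 1 libraries (64.4 and 41.6 CPM) were near those of replicate 3 (72.8 and 36.2 CPM). The labels do not say what the replicate number stands for, such as a culture, a day or a run.

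Long genes stood out in this difference. Over the 33 members the log2 ratio of the replicate 1 libraries to the other 4 had a Spearman correlation of 0.54 with exonic length, and over 18717 genes with an annotation one of 0.37. These describe genes of the same 6 libraries, which are not independent points. Of 972 genes with over 12000 exonic bases, 43.0% were at least 2-fold higher in the replicate 1 libraries, and of the 9 members that long 5 were. Among the 4309 genes of up to 2000 bases the share was 5.80%. GC content also went with it, with a Spearman correlation of -0.27 over the members and -0.54 over all genes. The siAURKA over siNC fold change had a correlation of 0.02 with length over the members and -0.02 over all genes, and of -0.17 and -0.24 with GC content. The part of length in the levels of FN1, FBN1 and the others was not tested. Exonic length, 17315 bases for FN1 and 12847 for DCN, covers all annotated exons of a gene and is not the length of its transcript.

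**Figure D4:**
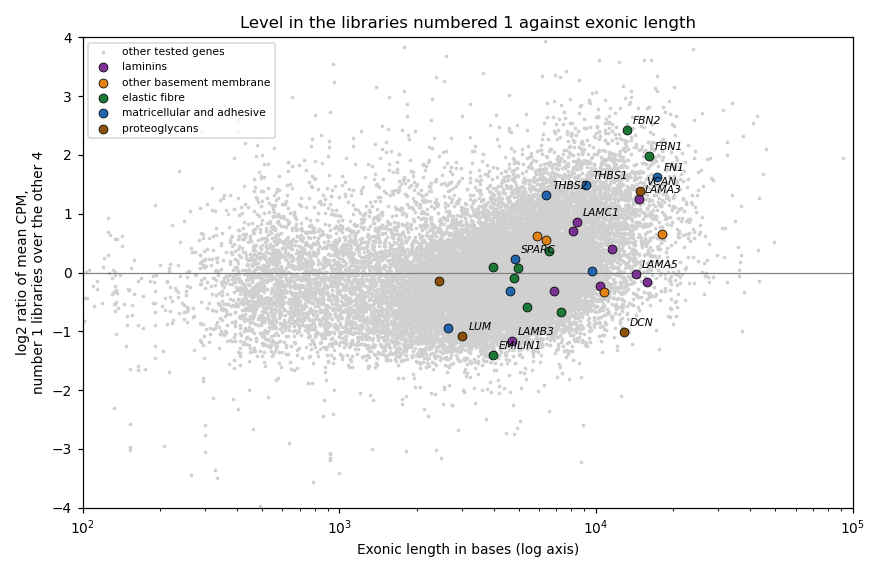
Log2 ratio of the mean CPM of both replicate 1 libraries to that of the other 4 (vertical axis) against exonic length in bases (horizontal log axis), with grey points for the other tested genes and coloured points for the 33 members by role. FBN2, FBN1 and FN1 lie at the upper right, while DCN, at 12847 bases and a low level, lies below 0. A few grey points lie beyond the axes.

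Ratios between related genes were also taken within each library. Such ratios, 10 in number and in CPM per kilobase, were chosen after the levels were seen and are described with no test. LAMA4 over LAMA5 was at 0.066, 0.033 and 0.050 in siNC and at 0.136, 0.093 and 0.103 in siAURKA, higher in every pair by 1.05, 1.48 and 1.05 on the log2 scale. NID2 over NID1 was at 0.194, 0.239 and 0.240 in siNC and at 0.383, 0.270 and 0.324 in siAURKA. THBS2 over THBS1 was at 2.94, 2.19 and 4.16 in siNC and at 4.66, 6.89 and 5.24 in siAURKA. In these 3 the groups did not overlap. Of all 435 ratios between the 30 members with no 0, 26 (5.98%) likewise did not overlap, close to the 5.85% of single genes. LAMB1 over LAMC1 was similar in the groups, at 0.378 ± 0.071 in siNC and 0.392 ± 0.081 in siAURKA, and FBN2 over FBN1 was at 0.493 ± 0.114 and 0.429 ± 0.058.

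**Figure D5:**
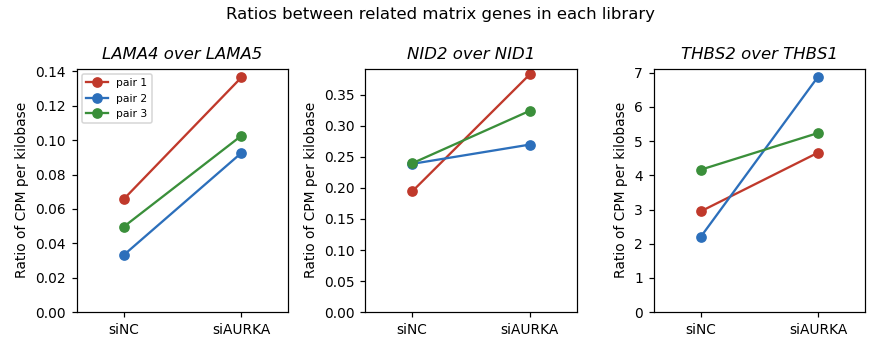
Ratio of CPM per kilobase between 2 related genes (vertical axes from 0) in siNC and siAURKA, with a line for each same-numbered pair. All 3 lines rise in each panel; LAMA4 over LAMA5 goes from 0.033 to 0.066 in siNC to 0.093 to 0.136 in siAURKA.

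Further matrix genes outside these 36, in 4 lists of the same roles, gave 43 tested of 70, with a median log2 fold change of 0.04. Of the 43, 7 were higher and 7 lower in all 3 pairs, beside 17.9% and 17.6% of all genes tested. edgeR called 0 of them, with 1 at an unadjusted p below 0.05, beside 1.26% of all genes. DESeq2 with the replicate block called 2, both as lower, beside 1.31% of all genes. TINAGL1, a basement membrane protein that binds laminin and integrins, was at 18.3 ± 3.23 CPM with siNC and at 9.91 ± 4.28 CPM with siAURKA (n = 3; DESeq2 with the replicate block, adjusted p 0.0412). HAPLN3, a link protein of hyaluronan and proteoglycans, was at 13.5 ± 3.81 and 6.98 ± 1.27 CPM (adjusted p 0.0292). In both genes the groups did not overlap. That held for 5 of the 43, all lower, beside 5.85% of all genes in either direction. TGFBI, an integrin-binding adhesive protein, was at 567 ± 61.5 and 422 ± 18.0 CPM and ADAMTSL4, a fibrillin-binding protein, at 32.3 ± 5.01 and 21.1 ± 6.98 CPM, also without overlap but not called by that fit (adjusted p 0.172 and 0.0663). PXDN, LTBP4, ABI3BP and SRGN, the others with the smallest p in their lists, had log2 fold changes of -0.34, -0.34, 0.33 and -0.30 with the replicate block and adjusted p-values of 0.341 or more by DESeq2 with the block.

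The receptors of these proteins were described as a list of 17, all tested, with a median log2 fold change of -0.19. Of the 17, 6 were lower and 0 higher in all 3 pairs, beside 17.6% and 17.9% of all genes tested. ITGA3, the alpha-3 integrin that binds laminin-332 and laminin-511, was at 474, 905 and 613 CPM in siNC and at 329, 606 and 404 CPM in siAURKA. Each siAURKA library was below its own control, while siAURKA replicate 2 was above siNC replicate 1. DESeq2 with the replicate block called ITGA3 (adjusted p 0.0107), 1 of the 17, beside 1.31% of all genes. The log2 fold change by edgeR with the replicate block was -0.57 (SE 0.10, adjusted p 0.549). BCAM, the Lutheran receptor for laminin alpha-5, was at 40.7, 121 and 55.4 CPM in siNC and at 29.4, 88.0 and 45.0 CPM in siAURKA, lower in 3 of 3 pairs and not called by that DESeq2 fit (adjusted p 0.241). In ITGA3, BCAM and LAMB3 both replicate 2 libraries were the highest of their group.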

How the data were processed

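The values, deposited by the authors as whole numbers per Ensembl gene and library, were taken as unscaled estimated counts. Alignment was to GRCh38 by HISAT2, per the submitters' processing notes; how genes were counted, with what annotation and whether by strand, is not given in the sources used here. Of these deposited estimated counts 30.3% to 34.0% of those from 1 to 24 were multiples of 4 (25% if all were equally frequent). From this excess 1 fragment was assumed to be worth 4 units, for floors of 3 fragments, or 12 units. Most of the low values were not multiples of 4, so the floors are rough, and they cover counting error only. The values being whole, rounding altered nothing. Symbols, coordinates and exonic lengths came from GENCODE release 29 (GRCh38), matched by 57980 of 58243 identifiers. Promoter windows came from RefSeq (GRCh38.p14).

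Genes were kept by filterByExpr (18775) and tested with edgeR's quasi-likelihood test, TMM scaling and Benjamini-Hochberg adjustment at 0.05 over all of them, siAURKA against siNC without covariates; the SE of a log2 fold change was its size divided by the square root of F. DESeq2, limma-voom, the replicate block, other scalings and filters, a GC offset and leaving out libraries or pairs were alternatives, the fits leaving out a pair under the block being chosen after seeing the data. After subtraction of each group's mean, log2 CPM correlated at 0.647, 0.477 and 0.302 between same-numbered libraries, all above 0.1, and at -0.525 to 0.040 otherwise, so libraries of 1 number were treated as a pair; this pairing comes from the data, not the labels. Pair ratios used CPM + 0.5. The members and gene lists were chosen with earlier results of these data known. Values in every library were given for members whose groups did not overlap and whose pairs agreed, for the 2 highest per kilobase in siNC of each subgroup, and for LAMA4 and SPARC; other genes were named as the 2 per list with the smallest p in edgeR with the replicate block. LAMB3, LAMA5, THBS1, FBN1, FBN2 and the low-level members were named after their values were seen. The fits were tested on simulated data. The software was Python 3.11.15 with scipy 1.17.1, numpy 2.4.6, pandas 2.3.3 and matplotlib 3.10.9, and R 4.3.3 with DESeq2 1.42.0, limma 3.58.1 and edgeR 4.0.16.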

Additional observations from a re-analysis of the deposited data

How the results depend on the processing

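Over 881 recomputed log2 fold changes of the 33 members, 793 kept the direction of the reported value and 88 reversed, in 21 members. edgeR's 0 called genes became 17 with DESeq2 and 246 with DESeq2 and the replicate block, and 0 called members became 1 with the latter. When libraries or pairs were left out, called genes ran from 0 to 285 and called members from 0 to 3, with calls above 3 genes arising only in DESeq2 with the replicate block. The replicate block changed no other call of a member. With all 6 libraries, reversals were seen in FN1, FBN2, FBLN2 and DCN. FN1 was at -0.0023 with DESeq2 and with DESeq2 size factors in edgeR, at -0.027 with the GC offset and at -0.012 with the GC offset and replicate block. FBN2 was at 0.13 with the replicate block, 0.12 with DESeq2 and the replicate block, 0.11 with limma-voom and 0.085 with the GC offset and replicate block. FBLN2 was at 0.022 with library totals, 0.0040 with no filter, 0.055 with the GC offset and 0.080 with it and the replicate block. DCN was at -0.32 with the GC offset and -0.19 with it and the replicate block. Leaving out libraries or pairs gave the following ranges of log2 fold change: LAMA3 -0.089 to 1.10, LAMB1 -0.48 to 0.17, LAMC1 -0.52 to 0.19, NID2 -0.13 to 0.37, HSPG2 -0.48 to 0.092, ELN -1.30 to 4.24, FBN1 -0.76 to 1.27, FBN2 -1.29 to 1.37, FBLN1 -0.25 to 1.20, FBLN2 -0.084 to 0.067, FBLN5 -0.33 to 0.80. Further ranges were EFEMP1 -0.45 to 0.10, FN1 -0.75 to 0.79, THBS1 -1.37 to 0.042, THBS2 -0.37 to 0.83, THBS3 -0.092 to 0.29, MGP -1.89 to 0.058, LUM -2.26 to 2.93, DCN -3.15 to 3.05, BGN -0.69 to 0.29, VCAN -0.42 to 1.04. Of the subgroups, the median of laminins ran from -0.39 to 0.17, the median of elastic fibre ran from -0.088 to 0.40, the median of matricellular and adhesive ran from -0.37 to 0.0050, the median of proteoglycans ran from -1.28 to 1.63. Members that kept their direction ran as AGRN -0.66 to -0.010, EFEMP2 -0.43 to -0.10, EMILIN1 0.062 to 1.020, LAMA1 -0.97 to -0.11, LAMA2 0.74 to 1.11, LAMA4 0.17 to 0.92, LAMA5 -0.87 to -0.34, LAMB2 -0.43 to -0.087, LAMB3 -1.70 to -0.019, NID1 -0.76 to -0.082, SPARC -1.05 to -0.32 and TNC -0.26 to -0.030. The cause was not tested. The values of the 12 members below 3 CPM rest on few fragments. The 2 libraries in which 6 of them were at 0, siNC replicate 1 and siAURKA replicate 3, are not the shallowest.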
